A study of Homo sapiens with 6 samples.

Results

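Epithelial-mesenchymal transition (EMT) was read through 10 genes in docetaxel-resistant DU-145 prostate cancer cells, in separate cultures with and without induction of a hairpin against MUC1. The 10 genes are the transcription factors ZEB1, ZEB2, SNAI1, SNAI2 and TWIST1, the cadherins CDH1 and CDH2, and the markers VIM, FN1 and EPCAM. They were selected by symbol from the 28008 genes of the deposited count table, with their change under doxycycline (DOX) in view. Their differences between the groups are therefore given as a description with a standard error and without a test. All 10 symbols were in the table, 8 had enough counts for the fit, and TWIST1 and CDH2 had a count of 0 in every library.

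EMT is the program by which epithelial cells loosen their junctions and take on a migratory, fibroblast-like state, and its reversal restores the junctions. The ZEB, SNAI and TWIST proteins drive it as transcription factors, and ZEB and SNAI proteins repress E-cadherin (CDH1) and other epithelial genes through short DNA words called E-boxes. E-cadherin joins neighbouring cells through the catenins, whereas N-cadherin (CDH2), vimentin (VIM) and fibronectin (FN1) mark the mesenchymal state. ZEB factors and the miR-200 family of microRNAs repress each other, which makes the balance between both states switch-like.

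RNA-Seq was performed on 6 libraries of DU-145-DR/tet-MUC1shRNA cells, a line derived from the DU-145 prostate cancer line by continuous docetaxel (DTX) and carrying a DOX-inducible hairpin against MUC1. The 3 DOX-negative libraries came from vehicle-treated cells, whose treatment label reads DTX resistant. The 3 DOX-positive libraries came from cells given DOX at 500 ng/ml, whose label reads tet-MUC1shRNA, and the study describes both groups as the same resistant line, treated for a week. DOX-treated cells with a control hairpin were not analysed here, so the effects of MUC1 loss, of DOX and of other targets of the hairpin cannot be told apart. The labels state triplicate cultures of 1 line, and p-values measure only the spread between these 6 libraries.

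The libraries held between 15092691 and 23243713 gene counts. For the silenced gene MUC1, counts of 387, 484 and 396 without DOX stood against 75, 74 and 66 with DOX, a log2 fold change (log2FC) of -2.52 with a standard error (SE) of 0.146 (edgeR adjusted p 4.47e-11). Across 14292 genes tested, 26.7% passed an edgeR adjusted p of 0.05, with 13% higher and 13.7% lower in DOX-positive cells. In 39.8% of these genes the 2 groups of libraries did not overlap (19.5% higher, 20.2% lower). Several prostate lineage markers were silent. KLK3, FOLH1 and HOXB13 were at 0 in all libraries. Keratins KRT8, KRT18 and KRT19 each had at least 3103 counts in every library, and the fibroblast genes DCN and LUM had at most 1. Other stromal markers were not all as low, with 66 to 96 counts for COL1A1 and 6 to 14 for COL3A1.

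ZEB2 was the member with the largest difference. ZEB2 encodes a zinc finger repressor of E-cadherin, and its transcript stood at 9.74, 8.08 and 7.21 CPM (counts scaled to a common library size, with TMM factors) in the DOX-negative libraries. In the DOX-positive libraries it stood at 1.57, 1.10 and 1.75 CPM. The groups were far apart, and every DOX-positive library lay below the lowest DOX-negative one. ZEB2 averaged 8.35 ± 1.29 CPM in the first group and 1.47 ± 0.336 CPM in the second (SD, n = 3 per group), and the fitted level with DOX was 17.6% of that without. The log2FC was -2.51 (SE 0.217), close in size to that of MUC1 itself. The DOX-positive values rest on 36, 21 and 26 counts.

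Its paralog ZEB1, which binds the same kind of E-box, differed much less. ZEB1 stood at 47.1, 43.2 and 45.1 CPM without DOX and at 32.8, 37.1 and 36.0 CPM with DOX. These groups did not overlap either. Mean ZEB1 was 45.2 ± 1.95 against 35.3 ± 2.24 CPM (SD, n = 3 per group), a log2FC of -0.36 (SE 0.0841), which left 78.0% of the DOX-negative level. Both ZEB genes were thus lower with DOX, ZEB2 by several-fold and ZEB1 by a small part of its level.

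**Figure D1:**
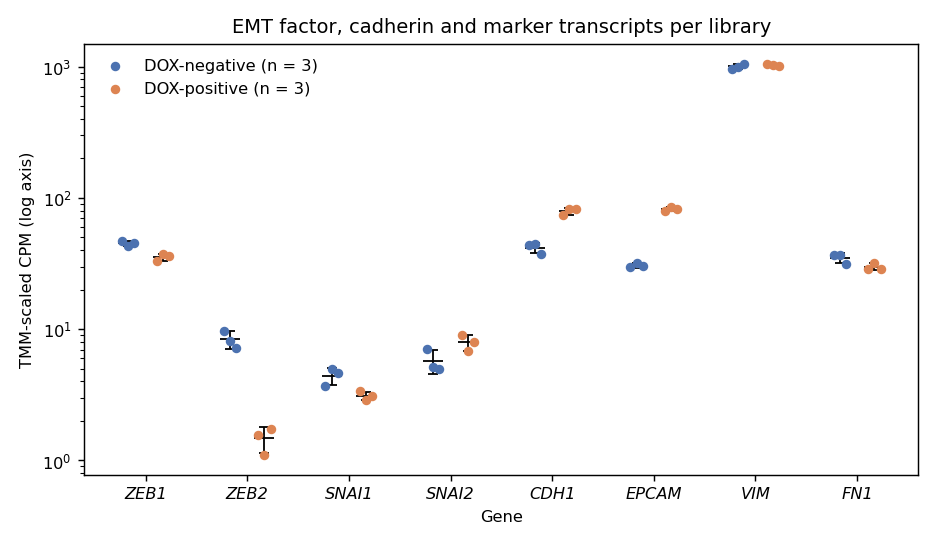
Level of each of the 8 measured EMT genes in the 6 libraries, as TMM-scaled CPM on a log axis; points are libraries, black dashes are means and bars are SD (n = 3 per group). ZEB2 drops from between 7.21 and 9.74 to between 1.10 and 1.75 CPM, EPCAM and CDH1 lie higher in every DOX-positive library, and VIM lies between 957 and 1054 CPM in both groups.

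In the GENCODE 29 annotation of GRCh38, ZEB1 lies on the plus strand of chromosome 10 (31318495 to 31529814) and ZEB2 on the minus strand of chromosome 2 (144364364 to 144524583). Each overlaps an antisense gene in its exons, and the strand setting used for counting is not given in the sources used here. ZEB2-AS1 was at 0 in all libraries. ZEB1-AS1 had 62 to 106 counts, against 535 to 907 for ZEB1, and its log2FC of 0.19 (SE 0.201, edgeR adjusted p 0.541) did not pass the threshold.

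Both ZEB transcripts are known targets of the miR-200 family, whose 5 mature members fall into 2 groups by seed, the bases at positions 2 to 8 that pair with a target. They are shown here, from RefSeq (GRCh38.p14), because the words searched for in the 3′UTRs are the complements of these seeds, marked in capitals.
hsa-miR-200a-3p: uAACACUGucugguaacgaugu
hsa-miR-141-3p: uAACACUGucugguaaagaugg
hsa-miR-200b-3p: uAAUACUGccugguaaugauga
hsa-miR-200c-3p: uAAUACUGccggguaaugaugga
hsa-miR-429: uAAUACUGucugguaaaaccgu
The first seed pairs with CAGTGTT and the second with CAGTATT. In the longest principal 3′UTR of ZEB1 (1938 bases), CAGTGTT occurred 3 times and CAGTATT 5 times. In that of ZEB2 (5370 bases), they occurred 4 and 5 times. Among 12085 tested genes with a 3′UTR of at least 50 bases, 19.8% held CAGTGTT and 18% held CAGTATT, and only 9 genes (0.0745%) held as many copies of both words together as ZEB1 or more. Of the other members, FN1 held CAGTATT 2 times and SNAI2 held it 1 time, and CDH1, CDH2, EPCAM, SNAI1, TWIST1 and VIM held neither.

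The miR-200 family itself could not be followed at the mature level, because the libraries were made from mRNA. The rows for MIR200A, MIR200B, MIR205 and MIR205HG were at 0, MIR200C had at most 2 counts, and the host transcript MIR200CHG had 0 to 11 counts with no separation between groups. Across all tested genes, holding a seed word went with nearly the same median. The median log2FC was -0.008 with CAGTGTT and -0.007 without it, and -0.027 with CAGTATT and -0.003 without it. It was -0.200 for the 9 genes with as many copies of both words as ZEB1 or more, both ZEB genes among them. The 3′UTR length was not held equal between these sets. Whether the miR-200 family has a part in the log2FC of ZEB1 or ZEB2 was not tested.

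Another word, the heptamer ATCAGTA, had come out of an earlier scan of these same fold changes, so its median is a description only. Genes with it had a median log2FC of -0.113 (1209 genes), against 0.002 for genes without it. ZEB1 and ZEB2 each held it 2 times in the 3′UTR, no other member held it there, and all of these copies ran into a CAGTATT word. The 4 copies are shown with the heptamer in capitals, followed in each case by the tt that completes CAGTATT.
ZEB2 at chr2:144389043-144389072, minus strand: cactaccatacATCAGTAtttttattatta
ZEB2 at chr2:144388980-144389009, minus strand: cactacaatgcATCAGTAttatgattcctc
ZEB1 at chr10:31527620-31527649, plus strand: tgttttatcttATCAGTAttatcactctta
ZEB1 at chr10:31528494-31528523, plus strand: gatttttacctATCAGTAttattttatttc
The 653 tested genes with the heptamer and no CAGTATT had a median log2FC of -0.100. The 1620 genes with CAGTATT and no heptamer had one of -0.003, and the 9256 genes with neither had one of 0.003. The heptamer was picked from these same fold changes, so a lower median for its carriers was fixed by that choice. The 3′UTR length was not held equal between these sets of genes, and nothing is read from their difference. Whether the heptamer has a part in the log2FC of ZEB1 or ZEB2 was not tested.

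The SNAI genes, which encode the zinc finger repressors Snail and Slug, pointed in opposite directions. SNAI1 stood at 3.69, 4.96 and 4.63 CPM without DOX and at 3.36, 2.87 and 3.09 CPM with DOX. The groups did not overlap but came close, and the lowest DOX-negative and highest DOX-positive libraries were 67 and 77 counts at different depths. The log2FC of SNAI1 was -0.51 (SE 0.206), from 4.43 ± 0.660 to 3.11 ± 0.241 CPM (SD, n = 3 per group).

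SNAI2 was higher on average with DOX. It stood at 7.10, 5.11 and 4.98 CPM without DOX, and with DOX the second library was the lowest at 6.84 and the first the highest at 9.06 CPM. The first library without DOX thus lay above 1 of those with it. The means were 5.73 ± 1.19 and 7.97 ± 1.11 CPM (SD, n = 3 per group), a log2FC of 0.48 (SE 0.173). Leaving out each library in turn gave 0.37 (without DOX-positive replicate 1) to 0.66 (without DOX-negative replicate 1), and the deposited TPM gave 0.063 to 0.089. The median of all genes was -0.32 to -0.39 in that TPM, and relative to it SNAI2 was at 0.38 to 0.47.

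TWIST1, a basic helix-loop-helix factor, and CDH2, the mesenchymal N-cadherin, had a count of 0 throughout. On the opposite strand, AC003986.2 overlaps the exons of TWIST1 and AC110015.1 those of CDH2. How reads over such overlaps were counted is not given in the sources used here. If reads over these genes were counted, a count of 0 allows up to 3 counts, which is 0.129 to 0.199 CPM in these libraries. N-cadherin thus gave no counterpart to E-cadherin in either group, and no cadherin ratio could be formed. The paralog TWIST2 was present with 74 to 120 counts with a log2FC of 0.046 (edgeR adjusted p 0.884).

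The epithelial surface genes were the members that stood higher with DOX in every library. CDH1 encodes E-cadherin, the adhesion molecule of the epithelial adherens junction. It stood at 43.7, 44.2 and 37.4 CPM without DOX and at 73.6, 82.4 and 81.8 CPM with DOX. The highest DOX-negative library was far below the lowest DOX-positive one. Mean CDH1 was 41.8 ± 3.81 against 79.2 ± 4.94 CPM (SD, n = 3 per group), a 1.90-fold difference with a log2FC of 0.92 (SE 0.0831). CDH1 is on the plus strand of chromosome 16 (68737225 to 68835548), and AC099314.1 on the opposite strand overlaps its exons.

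EPCAM, an epithelial cell adhesion molecule used as a carcinoma marker, differed more than CDH1. It stood at 29.5, 31.8 and 30.3 CPM without DOX and at 78.8, 84.6 and 82.8 CPM with DOX. Replicates were tight in both groups. The means were 30.5 ± 1.14 and 82.1 ± 2.97 CPM (SD, n = 3 per group), a 2.69-fold difference with a log2FC of 1.43 (SE 0.0775). EPCAM lies on the plus strand of chromosome 2 (47345158 to 47387601), and no annotated gene overlaps its exons.

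The mesenchymal markers did not mirror this. VIM, the intermediate filament of mesenchymal cells, stood at 957, 999 and 1054 CPM without DOX and at 1050, 1024 and 1009 CPM with DOX. The groups lay inside each other, and the log2FC was 0.034 (SE 0.0622), with its sign turning under scaling by total counts (-0.00022) and in the deposited TPM (-0.36). Relative to the median of all genes, the fits to TPM gave -0.036 to 0.036. VIM was among the more abundant transcripts with 15006 to 24091 counts, so the depth was not what limited the comparison. Its antisense gene VIM-AS1 had 69 to 113 counts, and AL133415.1 also overlaps its exons on the opposite strand.

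FN1, the extracellular matrix protein fibronectin, stood at 36.7, 36.8 and 31.6 CPM without DOX and at 28.8, 32.1 and 28.8 CPM with DOX. One DOX-positive library lay above the lowest DOX-negative library. The log2FC was -0.23 (SE 0.0924), from 35.0 ± 2.97 to 29.9 ± 1.88 CPM (SD, n = 3 per group).

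**Figure D2:**
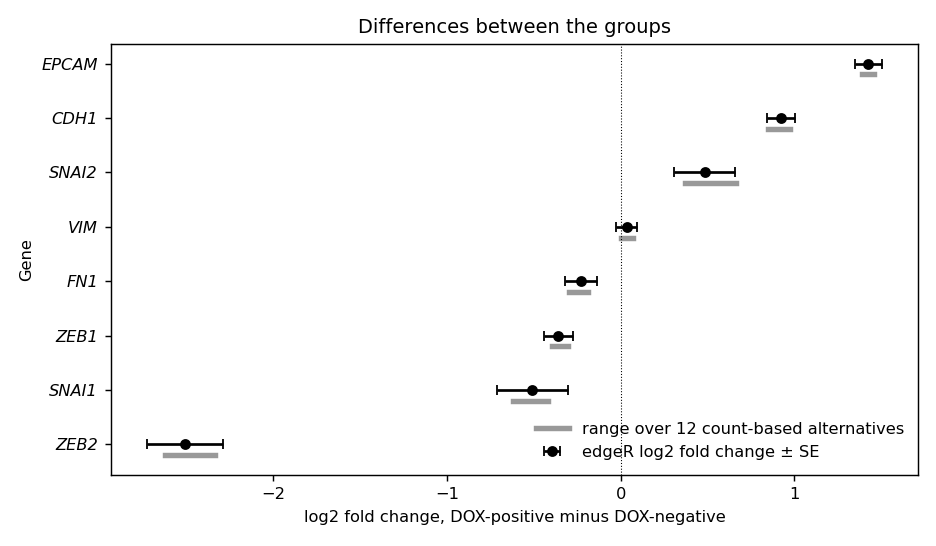
Log2 fold change of each gene, DOX-positive minus DOX-negative, with the edgeR estimate and its SE (black) and the range of the estimate over 12 alternative fits to the counts (grey). ZEB2 is at -2.51 and EPCAM at 1.43 at the ends, and the range of VIM spans 0.

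Of the 8 members measured, 5 had groups that did not overlap, 2 of them higher (CDH1, EPCAM) and 3 lower (ZEB1, ZEB2, SNAI1). The shares over all tested genes are those given above, and nothing is read from the count, because the genes were chosen on this contrast. In bulk RNA a change in the share of cells of one state and a change in RNA per cell cannot be told apart.

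Levels between genes were compared as TPM, in which counts are scaled by transcript length and to a common sum. The TPM ranges are not for comparison between the groups, because 5 short noncoding RNAs took 34.4% to 64.4% of a library's sum. VIM was first, then EPCAM and then CDH1 in each of the 6 libraries, and ZEB2 was last of the 8. VIM had 514 to 905 TPM without DOX and 488 to 539 with DOX. EPCAM had 19.6 to 38.2 and 48.7 to 59.1 TPM, and CDH1 had 7.55 to 16.6 and 14.2 to 17.9 TPM. In both groups the VIM transcript thus stood far above that of CDH1. ZEB1, FN1, SNAI1 and SNAI2 lay between 2.02 and 9.79 TPM with overlapping ranges, and their order differed between libraries. ZEB2 was at 0.590 to 1.22 TPM without DOX and 0.0966 to 0.155 TPM with DOX.

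Ratios within a library are free of the scaling between libraries. The ratio of ZEB1 to ZEB2 was 7.23, 7.99 and 9.35 without DOX and 31.2, 50.5 and 30.8 with DOX, with means of 8.19 ± 1.07 and 37.5 ± 11.3 (SD, n = 3 per group). ZEB1 was already the main ZEB transcript without DOX, and the gap was wider with it. The ratio of CDH1 to its repressor ZEB1 was 1.53 ± 0.161 and 3.72 ± 0.0418, and that of EPCAM to ZEB1 was 3.60 ± 0.291 and 12.4 ± 0.363 (SD, n = 3 per group). VIM exceeded CDH1 by 58.6 ± 8.34 times without DOX and by 31.4 ± 2.65 times with DOX, and EPCAM by 24.8 ± 1.29 and 9.44 ± 0.510 times (SD, n = 3 per group). SNAI2 and SNAI1 were near parity without DOX (1.05 ± 0.393), and SNAI2 led with DOX at 1.99 ± 0.126 (SD, n = 3 per group). For each of these ratios the groups did not overlap. The ratios are formed from members chosen on this contrast, so nothing is read from that.

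**Figure D3:**
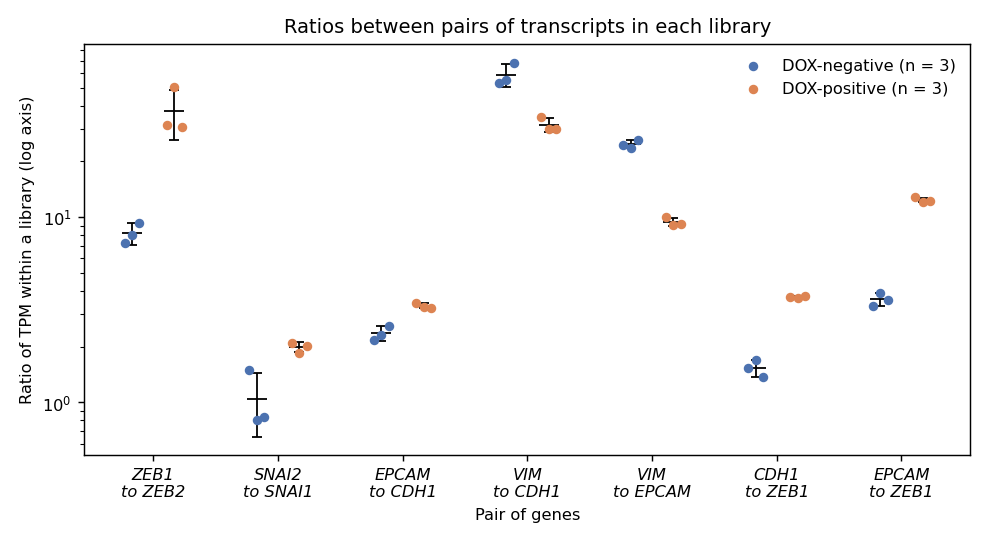
Ratio of TPM between pairs of genes in each library on a log axis; points are libraries, dashes are means and bars are SD (n = 3 per group). ZEB1 to ZEB2 goes from a mean of 8.19 to 37.5 and VIM to EPCAM from 24.8 to 9.44, and the groups do not overlap for any pair drawn. The pairs join genes chosen on this contrast.

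The genes nearest to ZEB2 in profile, by distance between centred log2 CPM over the 6 libraries among 12355 genes, were MUC1 (0.618), DDX60 (0.827) and CYP4F3 (0.904). The CYP4F3 mean went from 10.8 to 2.31 CPM and that of DDX60 from 6.09 to 1.28 CPM. Nearest to EPCAM were SGK1 (0.163), BHLHE40 (0.169) and MARCH4 (0.239). BHLHE40 had means of 27.0 and 69.8 CPM. Likeness here is of the pattern over 6 libraries only. That pattern is set largely by the difference between the groups, with a log2FC of -2.52 for MUC1 and -2.24 for DDX60 and CYP4F3. The members were chosen with this difference in view, so nothing is read from the likeness.

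The rest of the pathway was read from 9 lists of 178 genes, of which 125 were tested and 59 passed an edgeR adjusted p of 0.05, 46 higher and 13 lower with DOX (47.2%, against 26.7% of all genes). MUC1, itself on the epithelial readout list, and the 10 members were left out of all list counts. How reads over overlapping genes were counted is not given in the sources used here, so a count at or near 0 for a listed gene, or for CDH2 and TWIST1, may not show that its transcript was absent. The median log2FC of the 125 was 0.10, and that of all tested genes was -0.0034. The lists were written with earlier results of these libraries known. In the deposited TPM, whose overall median lies below 0, RCOR1, FBXL5 and CDH24 had the opposite sign to that given here, and only 7 of the list genes were called.

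Among other EMT transcription factors, 7 of 14 were tested, 1 rose and 2 fell (42.9% called, against 26.7% of all genes). The list median was -0.029. HMGA2, an architectural chromatin factor and activator of SNAI and TWIST genes, rose from 9.43 ± 1.41 to 25.4 ± 2.46 CPM (SD, n = 3 per group), a log2FC of 1.43 (SE 0.123, edgeR adjusted p 1.77e-08). That is the opposite direction to ZEB2. The E-proteins TCF12 (-0.32, edgeR adjusted p 0.00102) and TCF3 (-0.26, edgeR adjusted p 0.015) fell slightly. The TCF3 call did not survive leaving out DOX-negative replicate 3 (-0.23) or, in turn, DOX-positive replicate 2 (-0.17). TCF4 and FOXC2 were at 0.

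Cofactors that ZEB and SNAI proteins recruit to silence genes were all 15 measured, with 1 higher and 3 lower, a share of 26.7% that equals that of all tested genes. CTBP1, the C-terminal binding protein through which ZEB factors repress, fell from 116 ± 11.7 to 78.4 ± 8.23 CPM (SD, n = 3 per group), a log2FC of -0.57 (SE 0.0835, edgeR adjusted p 2.67e-05). CTBP2 fell by 0.21 on the log2 scale (edgeR adjusted p 0.0323). The histone methyltransferase EHMT2 fell (-0.29, edgeR adjusted p 0.0263), a call lost without DOX-negative replicate 2 (-0.21), DOX-positive replicate 2 (-0.24) or DOX-positive replicate 3 (-0.27). RCOR1, a scaffold of the LSD1 complex, rose by 0.30 (edgeR adjusted p 0.00101). SNAI1 protein is also set by ubiquitin ligases and deubiquitinases. Of 14 such genes tested, 3 were called, a share of 21.4% against 26.7% of all genes. FBXO45 fell from 156 ± 5.99 to 105 ± 4.47 CPM (SD, n = 3 per group; log2FC -0.57, edgeR adjusted p 1.11e-06), FBXL5 rose by 0.35 (edgeR adjusted p 0.000352) and the deubiquitinase USP27X fell by 0.68 on the log2 scale (edgeR adjusted p 0.0391). USP27X had at most 72 counts, and its call was lost when any 1 of the 6 libraries was left out (-0.74 to -0.58).

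Among epithelial transcription and splicing factors, 19 genes were listed. Of these, 12 were tested, 7 rose and 0 fell by edgeR (58.3% called, against 26.7% of all genes), and the median was 0.44. By DESeq2 7 rose and 0 fell, and 0 of the tested genes fell at an unadjusted edgeR p under 0.05. ESRP1, the regulator of epithelial splicing, had 166, 148 and 149 counts without DOX and 465, 666 and 313 with DOX. That gave 8.04 ± 0.954 and 25.4 ± 8.17 CPM (SD, n = 3 per group), a log2FC of 1.66 (SE 0.169, edgeR adjusted p 1.8e-07). Its partner ESRP2 rose by 0.44 (edgeR adjusted p 0.00144). KLF4 (0.51), ELF3 (0.45), KLF5 (0.31) and FOXA1 (0.24), transcription factors of epithelial differentiation, also rose, with edgeR adjusted p between 0.00187 and 0.0217. GRHL1, a grainyhead factor, had a log2FC of -0.29 (edgeR adjusted p 0.178) with groups that did not overlap, and GRHL3 one of -0.27 (edgeR adjusted p 0.693), neither past the threshold. GRHL2, OVOL1 and MIR205HG had at most 4 counts in any library.

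Catenins and the plaque proteins of several junction types formed the next list. Of 18 genes, 13 were tested, 4 rose and 1 fell (38.5% called, against 26.7% of all genes), and the median was -0.086. The risers were desmosomal or junctional plaque proteins, PKP3 (0.66), DSP (0.41), JUP (0.40) and AFDN (0.26), with edgeR adjusted p between 4.05e-05 and 0.00475. CTNNB1 (-0.16, edgeR adjusted p 0.0682) and CTNNA1 (-0.13, edgeR adjusted p 0.112), the catenins that link E-cadherin to actin, did not pass the threshold. CTNND1, p120-catenin, had only 39 to 77 counts (0.078, edgeR adjusted p 0.851). NECTIN1, an adhesion molecule of another family, fell by 0.33 on the log2 scale (edgeR adjusted p 0.00333). Among the 27 other cadherins 7 were tested and 3 were called (42.9%, against 26.7% of all genes). The desmosomal cadherin DSC2 rose from 67.1 ± 1.51 to 94.5 ± 4.28 CPM (SD, n = 3 per group; log2FC 0.49, edgeR adjusted p 1.73e-05), CDH24 rose by 0.25 (edgeR adjusted p 0.0149) and DSC3 fell by 0.44 on the log2 scale (edgeR adjusted p 0.00815). The CDH24 call was lost when replicate 1 of either group was left out (0.24 lacking the DOX-negative one and 0.22 lacking the DOX-positive one), and the DSC3 call without DOX-positive replicate 1 (-0.30). P-cadherin, CDH3, was present at 709 to 1175 counts with a log2FC of 0.20 that did not pass (edgeR adjusted p 0.124).

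Tight junction and polarity genes were all 23 tested, with 11 higher, 1 lower (52.2% called, against 26.7% of all genes) and a median of 0.29. MARVELD3, a tight junction protein, went from 1.36 ± 0.237 to 2.79 ± 0.238 CPM (SD, n = 3 per group; log2FC 1.03, edgeR adjusted p 0.00678). CRB3, the Crumbs polarity protein that ZEB1 is known to repress, rose from 7.46 ± 0.918 to 13.1 ± 2.35 CPM (SD, n = 3 per group; log2FC 0.82, edgeR adjusted p 0.000316). CLDN1 (0.70), F11R (0.43) and OCLN (0.29) rose as well. DLG1 fell by 0.16 on the log2 scale (edgeR adjusted p 0.0482), a call lost without DOX-negative replicate 1 (-0.15), DOX-negative replicate 3 (-0.16), DOX-positive replicate 1 (-0.13) or DOX-positive replicate 3 (-0.17).

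The list of epithelial readout genes held the highest share called of the 9 lists, 93.3% against 26.7% of all genes. Of 17 genes, with MUC1 left out because the hairpin targets it (log2FC -2.52), 15 were tested, 14 rose and 0 fell by edgeR, with a median of 0.69. ERBB3 did not pass (-0.22, edgeR adjusted p 0.0918). ERBB3 was the 1 gene lower at an unadjusted edgeR p under 0.05, and by DESeq2 13 rose and 0 fell. KRT19, a keratin of simple epithelia, rose from 176 ± 9.06 to 353 ± 13.1 CPM (SD, n = 3 per group; log2FC 1.00, SE 0.0629, edgeR adjusted p 1.37e-10). SPINT1, a membrane serine protease inhibitor, rose by 0.92 (SE 0.0959, edgeR adjusted p 2.58e-07). KRT8 (0.84), KRT18 (0.81), MAPK13 (0.86) and MAL2 (0.83) rose by similar amounts.

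The mesenchymal readout list split. Of 30 genes, 19 were tested, 5 rose, 3 fell (42.1% called, against 26.7% of all genes) and the median was 0.028. LOX, the collagen cross-linking enzyme, rose from 12.2 ± 1.20 to 55.1 ± 5.82 CPM (SD, n = 3 per group), a log2FC of 2.17 (SE 0.104, edgeR adjusted p 3.78e-12). NT5E, the ectoenzyme CD73, rose by 0.51 (edgeR adjusted p 9.22e-06), and ITGB1 (0.39) and CD44 (0.27) rose too. NES, the intermediate filament nestin, fell from 7.22 ± 0.974 to 2.96 ± 0.218 CPM (SD, n = 3 per group; log2FC -1.28, edgeR adjusted p 2.03e-05), and FSTL1 fell by 0.84 on the log2 scale (edgeR adjusted p 0.00022). AXL, a receptor tyrosine kinase of mesenchymal carcinoma cells, kept 8795 to 13974 counts and did not pass (0.10, edgeR adjusted p 0.255).

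**Figure D4:**
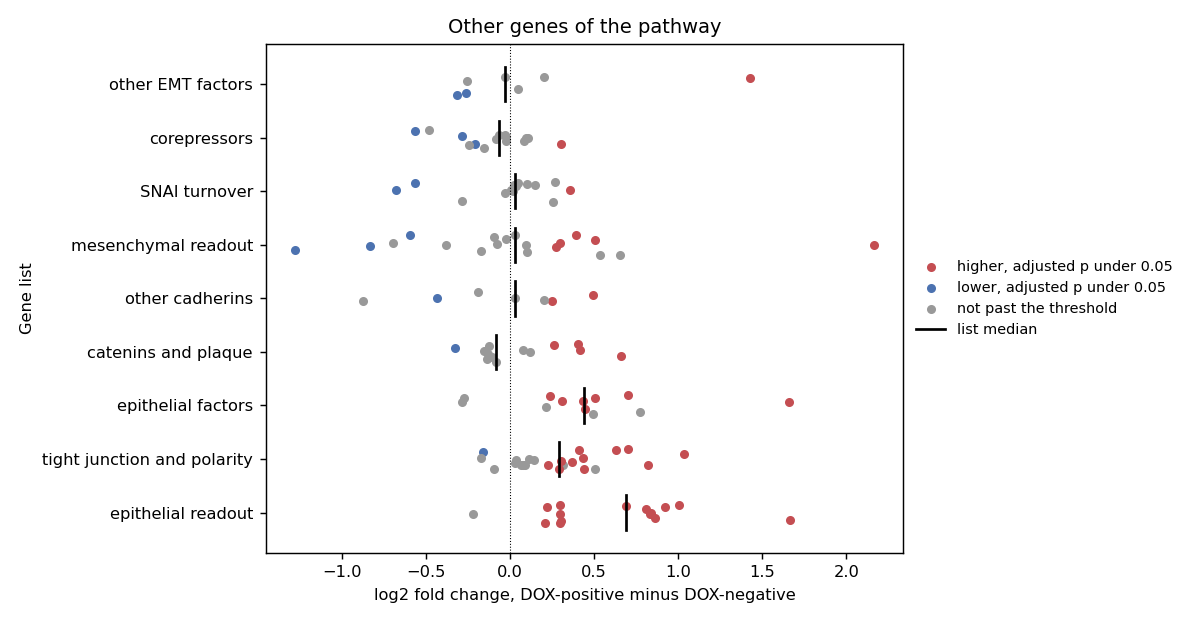
Log2 fold change (DOX-positive minus DOX-negative) of each tested gene in the 9 lists, red or blue where the edgeR adjusted p was under 0.05 and grey otherwise, with the list median as a black line. The epithelial readout list, with a median of 0.69, lies furthest to the right, and LOX at 2.17 and NES at -1.28 are the ends of the mesenchymal list.

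Markers of other lineages and cell types were read beside these lists. The 9 prostate luminal markers summed to at most 31.8 CPM without DOX and to 32.1 to 37.1 CPM with DOX, with no overlap, and neither of the 2 that were tested passed the threshold. The 9 stromal markers summed to 4.70 to 5.56 CPM without DOX and 4.31 to 6.32 CPM with DOX. The 9 leukocyte and endothelial markers summed to 92.5 to 107 and 159 to 180 CPM, nearly all of it CD68, a lysosomal protein (log2FC 0.75, edgeR adjusted p 8.39e-08), while CD3E was at 0 and PTPRC had at most 3 counts. The 7 neuroendocrine markers summed to 34.5 to 39.4 and 26.6 to 29.3 CPM, nearly all of it ENO2, with 4 of the 7 at 0.

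Promoters were searched for the E-box word CAGGTG, read on both strands, which ZEB and SNAI proteins bind, in RefSeq windows (GRCh38.p14) from 250 bases before to 50 bases after each start. Windows were at hand for CDH2, FN1, VIM, ZEB1 and ZEB2. They hold no CAGGTG except at ZEB1, where 2 of its windows held 4 copies. Of all 35116 windows, 20.6% held the word. Among the 32 epithelial factor, junction and readout genes that rose, 18 had a window and 10 of these (55.6%) held it. Among the 10 list genes with a window that were tested and did not rise, 6 (60%) held it, so the word did not separate them, and over tested genes with a window the share was 24.3%.

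The 4 copies at ZEB1 and the 5 at CRB3, the window with the most copies among these genes, are shown with the word in capitals on the gene's strand (CACCTG is CAGGTG read on the other strand).
ZEB1 at chr10:31318348-31318377: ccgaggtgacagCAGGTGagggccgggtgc
ZEB1 at chr10:31318966-31318995: ccccaccaCACCTGaggaaaacttttccct
ZEB1 at chr10:31319119-31319148: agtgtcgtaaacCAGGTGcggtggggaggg
ZEB1 at chr10:31319236-31319265: tggcggatggcccCAGGTGtaagcgcagaa
CRB3 at chr19:6464031-6464060: atgctcgcaatgCAGGTGtaaggtccccct
CRB3 at chr19:6464051-6464080: aggtccccctcaCACCTGcgcgcttccgcg
CRB3 at chr19:6464112-6464141: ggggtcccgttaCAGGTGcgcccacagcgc
CRB3 at chr19:6464170-6464199: ctcagcgaggctCAGGTGcacaagccggaa
CRB3 at chr19:6464199-6464228: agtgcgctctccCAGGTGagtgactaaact
Both genes are on the plus strand. A match says only that these letters are present, and binding was not measured in these libraries.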

How the data were processed

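Poly(A) RNA libraries (TruSeq Stranded mRNA) of 3 DOX-negative and 3 DOX-positive cultures were sequenced and, per the submitters' processing notes, aligned with STAR to GRCh38 (hg38). Tool versions are not given in the sources used here, nor is the strand setting of the counting. The authors deposited whole-number counts for 28008 genes and TPM for 25546 genes. The RN7SL1, RN7SL2, RN7SL3, RN7SK and RPPH1 rows together took 34.4% to 64.4% of a library's TPM. Genes were therefore compared in TPM only within a library, and fits to TPM were alternatives.

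Counts were filtered with filterByExpr, scaled by TMM and fitted with edgeR 4.0.16 (quasi-likelihood test, group only, two-sided, Benjamini-Hochberg over 14292 genes) in R 4.3.3. The edgeR fit was tested on simulated counts. DESeq2 1.42.0 and limma 3.58.1 on log2(TPM + 1 or + 0.1) were alternatives. The study names DESeq2. Protein sequences were not used here.

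The genes and lists were chosen with earlier results of these data known. Named list genes were the 2 largest rises and the 2 largest falls per list with adjusted p under 0.05, an average log2 CPM of 1 or more and non-overlapping groups. Profile neighbours were the 3 nearest genes to each non-overlapping member that differed by 1 or more in log2 units. Other genes named were chosen after their values were seen. Sequence words were counted in RefSeq promoter windows and in GENCODE 29 principal transcripts. Some genes of the lists are not reported here by name.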

Additional observations from a re-analysis of the deposited data

How the results depend on the processing

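Over 15 alternatives, ZEB1, ZEB2, SNAI1, SNAI2, CDH1, EPCAM and FN1 kept their direction, and VIM did not have a settled sign. Of their 15 values for each of the 8 genes, 104 in all moved by less than the spread between replicates and 16 by more, all on TPM. ZEB2 was -0.79 with log2(TPM + 1), -2.20 with log2(TPM + 0.1) and -1.12 on rescaled TPM. Its level is at most 1.22 TPM, so the pseudocount sets its size. TPM as deposited moved the median of all genes to -0.32 (TPM + 1) and -0.39 (TPM + 0.1). It called 443 and 408 genes in place of 3816, with 6.77% and 7.11% of them higher in place of 48.8%, and 7 list genes in place of 59 (28.6% higher in place of 78.0%) under each. CDH24 (-0.14 and -0.15), FBXL5 (-0.041 and -0.041) and RCOR1 (-0.089 and -0.090) turned in sign there, and relative to the median shift each stayed higher (at least 0.18, 0.28 and 0.23). After rescaling without the 5 noncoding RNAs, 48 list genes were called.

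Leaving out each library gave 2784 to 3645 genes called, 50 to 56 list genes, and a MUC1 log2 fold change of -2.62 to -2.41. A replicate block gave 3158 genes, of which 3136 were among the 3816, and 52 list genes, with MUC1 at -2.52. Under the block DLG1, EHMT2 and USP27X lost their calls (edgeR adjusted p 0.115, 0.0524 and 0.0636). Same-numbered libraries did not deviate together (r of -0.070, -0.145 and -0.037), so the numbers gave no pairing. USP27X also lost its call under DESeq2 (0.0594), and DLG1 with RLE factors (0.0566) or no filter (0.0591). Low counts limit ZEB2 with DOX and SNAI1. At 0 counts TWIST1 and CDH2 are bounded only by the 3-count floor, and only if reads over these genes were counted.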
